A study of Danio rerio with 11 samples.

Results

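The genes described here are 8 cartilage genes that were followed through eyes, heads and retinae of zebrafish (Danio rerio): sox9a, col2a1a, col11a2, col9a1a, acana, matn1, snorc and the col10a1 gene ENSDARG00000054753. They were chosen by name, with earlier results of these data known, and were matched to the gene identifiers of the expression tables. All 8 were found among the 29387 genes that had a value. RNA was measured by polyA-selected sequencing in 11 libraries of pooled tissue. In the mutant eyes, which the study's design text calls KO, srrm3 carried a mutation of its eMIC domain, the stretch of this splicing regulator that promotes inclusion of very short neuronal exons. Mutant eyes and eyes of WT siblings were taken at 48, 60 and 72 hours post fertilisation (hpf) and at 5 days post fertilisation (dpf), with 1 library per genotype and stage. A further library came from heads of WT AB embryos at 24 hpf, and 2 libraries came from retinae of WT adult fish, whose age was not given. Fish were kept at 28°C with 14 h of light and 10 h of dark. Each eye library pooled 20 to 60 eyes at 48 to 72 hpf and 20 eyes at 5 dpf, each adult library pooled 5 retinae, and genotype was read from fin clips at 48 to 72 hpf. The RNA of the 48 to 72 hpf eyes was extracted with a Micro kit and that of the other libraries with a Mini kit, so that stage and kit cannot be told apart where these are compared. Nothing states whether different fish gave the adult replicates. The p-values of the adult comparison rest on a spread shared by all 11 libraries, with 4 residual degrees of freedom. The larval eyes alone leave 3 of these, so the p-values do not measure the spread between adult fish.

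Cartilage is a matrix of thin collagen fibrils and water-binding proteoglycans laid down by chondrocytes. SOX9 is the transcription factor that starts the chondrocyte programme, and collagens of types II, IX and XI build its fibrils together. Aggrecan fills the space between the fibrils, matrilin-1 links fibrils to proteoglycans, and type X collagen forms a network in cartilage whose chondrocytes have enlarged. In larval fish, cartilage rods of the skull lie beside the eye, the sclera of teleosts can hold cartilage, and fibril collagens of these types are also made for the vitreous, the notochord and the ear. A retina contains no cartilage.

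Library totals ran between 37724575 counts in 72 hpf WT eyes and 92560511 counts in the second adult retina. Levels are given as cRPKM, reads scaled by gene length and by library size as the authors deposited them, so that different genes can be compared. Intervals quoted for single libraries are exact 95% intervals that cover counting error only. The gene srrm3 itself had 1.76, 2.36, 2.64 and 3.30 cRPKM in mutant eyes at 48, 60 and 72 hpf and 5 dpf, against 1.09, 2.06, 1.26 and 4.15 cRPKM in WT eyes, and a gene level does not test a mutation of 1 domain. The libraries also held markers of other tissues, in unequal amounts. Exocrine pancreas markers summed to 6564 cRPKM in 5 dpf mutant eyes and to 45.2 cRPKM in 5 dpf WT eyes. Skeletal muscle markers summed to 19184 cRPKM in mutant and 11327 cRPKM in WT eyes at 48 hpf, and to 9084 and 2564 cRPKM at 60 hpf. Trunk Hox genes summed to 206 and 162 cRPKM in mutant and WT eyes at 48 hpf, against 75.6 and 15.6 cRPKM at 60 hpf. Skin markers summed to 11294 cRPKM in adult retina 1 and to 757 cRPKM in adult retina 2. In bulk RNA of this kind, fewer cells of a type and less RNA per cell cannot be told apart.

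Sox9a, the regulator among the 8, was already present in the head and varied least among larval eyes. The 24 hpf head had 19.9 cRPKM. In eyes, mutant against WT, it had 36.4 against 30.9 cRPKM at 48 hpf, 35.5 against 38.1 cRPKM at 60 hpf, 29.8 against 26.9 cRPKM at 72 hpf, and 23.6 against 12.6 cRPKM at 5 dpf. The adult retinae had 1.79 and 3.16 cRPKM. The highest larval eye library thus stood 3.03 times above the lowest, and all larval eyes stood above both adult retinae. Bulk RNA does not tell which cells of the eye or retina held the sox9a RNA.

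The collagen fibril genes had a base level in the head and a peak at 60 hpf. Col2a1a, which encodes the type II collagen chain that makes up most of the cartilage fibril, had 94.5 cRPKM in the 24 hpf head. Eyes had, mutant against WT, 156 against 166 cRPKM at 48 hpf, 587 against 576 cRPKM at 60 hpf, 341 against 245 cRPKM at 72 hpf, and 434 against 155 cRPKM at 5 dpf, and the adult retinae had 8.80 and 6.57 cRPKM. Ranked among all genes by cRPKM, it was number 189 in 60 hpf mutant eyes and 193 in 60 hpf WT eyes, and it lay at 6898 and 8084 in the adult retinae.

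Col11a2, a chain of the type XI collagen that sits in the core of the fibril and starts its assembly, followed col2a1a at a lower level. It had 11.3 cRPKM in the head. In eyes, mutant against WT, it had 17.1 against 15.8 cRPKM at 48 hpf, 74.8 against 80.7 cRPKM at 60 hpf, 40.5 against 28.1 cRPKM at 72 hpf, and 61.5 against 22.0 cRPKM at 5 dpf, and the adult retinae had 1.51 and 0.07 cRPKM. Its level was between 9.53% and 14.2% of that of col2a1a in all 8 larval eye libraries, and it was 17.2% and 1.06% of it in the adult retinae.

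Col9a1a encodes a chain of type IX collagen, which decorates the fibril surface. It had 10.7 cRPKM in the head. Eyes had, mutant against WT, 47.9 against 53.0 cRPKM at 48 hpf, 206 against 196 cRPKM at 60 hpf, 145 against 133 cRPKM at 72 hpf, and 171 against 61.4 cRPKM at 5 dpf. The adult retinae had 1.22 and 0.42 cRPKM. Both 60 hpf libraries were thus the highest, and the 5 dpf WT library was the only one of the later eyes close to the 48 hpf level.

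Matn1 and acana were near 0 at 48 hpf, and snorc was low. Matn1, which encodes matrilin-1, stood furthest apart between 48 and 60 hpf. It had 1.36 cRPKM in the head, 0.58 and 0.65 cRPKM in mutant and WT eyes at 48 hpf (51 and 60 counts), and 279 and 324 cRPKM at 60 hpf. It then stood at 225 and 187 cRPKM in mutant and WT eyes at 72 hpf, at 216 and 89.4 cRPKM at 5 dpf, and at 1.89 and 0.31 cRPKM in the adult retinae. Set against col2a1a, matn1 was at 0.37% and 0.39% of its level in mutant and WT eyes at 48 hpf and at 47.5% and 56.2% at 60 hpf.

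Acana, one of the aggrecan genes, had the lowest peak of the 8. It had 0.24 cRPKM in the head from 24 counts. In eyes, mutant against WT, it had 0.72 against 0.68 cRPKM at 48 hpf, 8.72 against 7.79 cRPKM at 60 hpf, 4.98 against 2.95 cRPKM at 72 hpf, and 10.99 against 5.56 cRPKM at 5 dpf, and the adult retinae had 0.60 and 0.20 cRPKM. Its highest library was the 5 dpf mutant one, where the fibril genes were below their 60 hpf level.

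Snorc, a small membrane proteoglycan of chondrocytes known mainly from mouse, had 5.89 cRPKM in the head. Eyes had, mutant against WT, 4.53 against 2.90 cRPKM at 48 hpf, 24.7 against 23.3 cRPKM at 60 hpf, 21.4 against 22.0 cRPKM at 72 hpf, and 23.1 against 14.6 cRPKM at 5 dpf, and the adult retinae had 3.32 and 0.52 cRPKM. It was flat between 60 and 72 hpf, where the fibril genes were lower at the later time in both genotypes.

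Col10a1, the type X collagen gene, was highest at 5 dpf in both genotypes. Teleosts also use this gene in bone-forming cells. It was at 0.03 cRPKM in the head, which rests on 4 counts. In eyes, mutant against WT, it had 15.1 against 14.3 cRPKM at 48 hpf, 49.6 against 27.6 cRPKM at 60 hpf, 29.0 against 41.1 cRPKM at 72 hpf, and 260 against 135 cRPKM at 5 dpf. The adult retinae had 9.29 and 0.60 cRPKM. Both 5 dpf libraries were above every other library, and at that age col10a1 reached 59.9% of the col2a1a level in mutant eyes and 86.9% in WT eyes. In the adult retinae, where both genes were much lower, it was at 105.6% and 9.13% of that level.

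**Figure D1:**
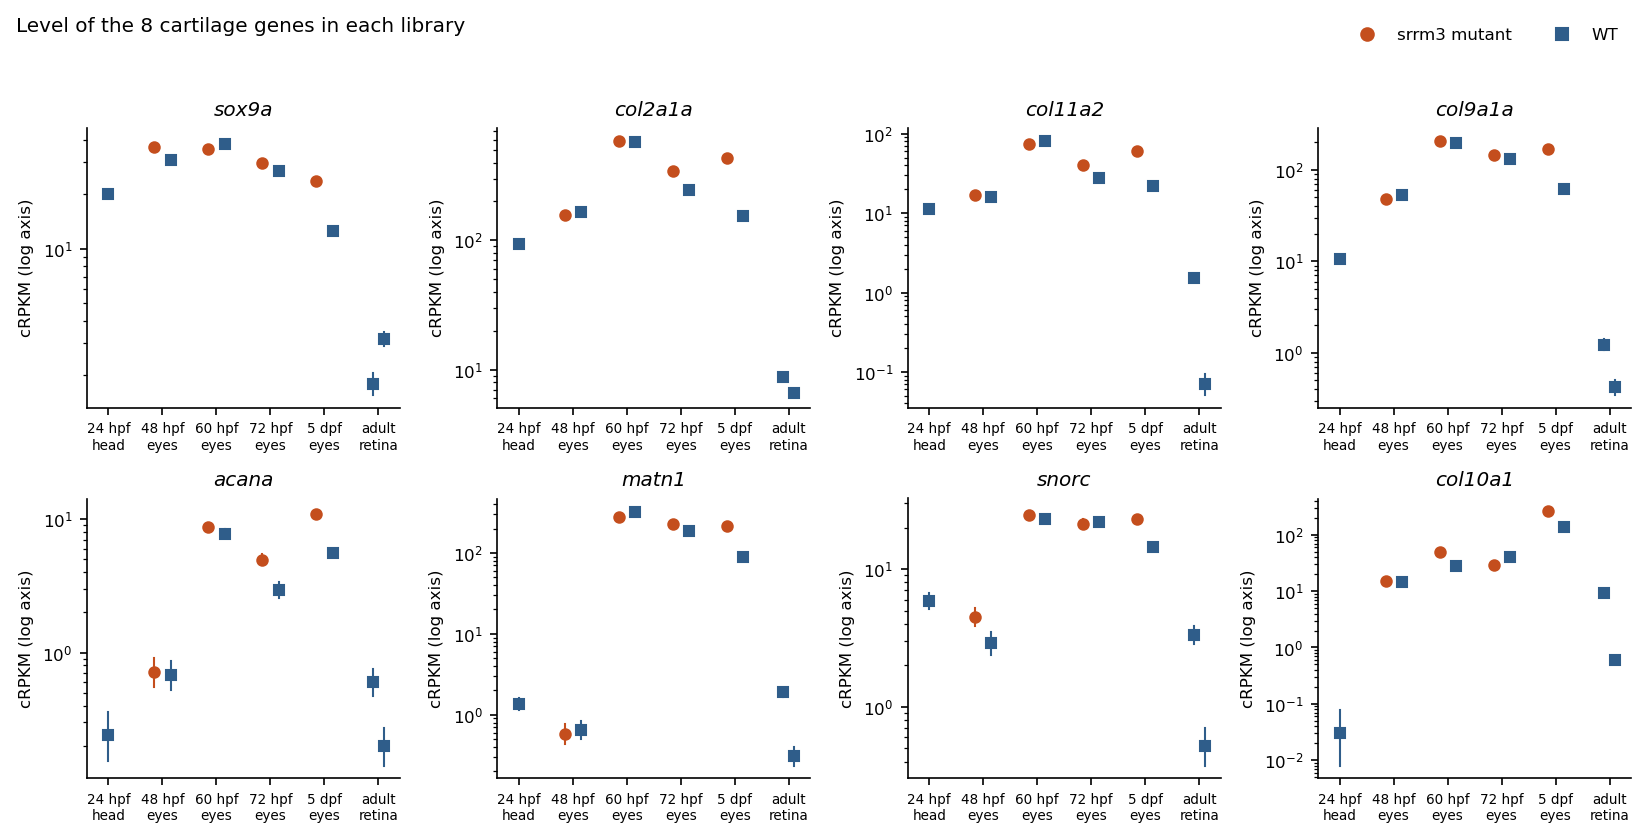
Level of each of the 8 genes (cRPKM, log axis) in each of the 11 libraries by stage; orange circles are srrm3 mutant eyes, blue squares are WT, and vertical lines are exact 95% counting intervals. Matn1 is at 0.58 and 0.65 cRPKM at 48 hpf and at 279 and 324 cRPKM at 60 hpf, while sox9a stays between 12.6 and 38.1 cRPKM in all larval eyes.

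The 8 genes together took 0.0706% of all counts in the 24 hpf head. Their share was 0.127% in mutant against 0.132% in WT eyes at 48 hpf, 0.531% against 0.530% at 60 hpf, 0.329% against 0.255% at 72 hpf, and 0.463% against 0.181% at 5 dpf. It was 0.0101% and 0.0049% in the adult retinae. Col2a1a and col11a2 had a Pearson correlation of 0.98 over the 8 larval eye libraries on the log2(cRPKM + 1) scale, and matn1 and snorc one of 0.99. Sox9a correlated with the other 7 between -0.68 and 0.43 over the same libraries. These values describe libraries that share stages and siblings, and they carry no test.

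Between the 24 hpf WT head and 48 hpf WT eyes the 8 genes did not move together. With 1 library on each side there is no test, and a gene was counted as different when it was at least 2-fold apart on log2(cRPKM + 1) with at least 5 cRPKM in the higher library. Acana and matn1 fell short of that minimum, which 6 of the 8 met. By that measure 2 of the 8 were higher in the eyes, against 12.6% of 11096 genes different in either direction and 8.97% higher. These were col9a1a, at 4.94-fold (counting interval 4.66 to 5.23), and col10a1, whose ratio of 448 has a counting interval of 175 to 1645 because the head gave only 4 counts. Col2a1a was 1.76-fold higher (interval 1.73 to 1.78), and sox9a and col11a2 were 1.55-fold and 1.40-fold higher. Matn1 was lower in the eyes, at 0.48 times the head level (interval 0.35 to 0.66), and snorc was at 0.49 times (interval 0.39 to 0.62). On log2(cRPKM + 1) snorc stood at -0.82, so it was not counted as 2-fold lower. Head and eyes are different tissues and differ by kit, so age, tissue and kit cannot be told apart here. Trunk Hox genes summed to 158 cRPKM in the head and to 162 cRPKM in 48 hpf WT eyes. Skeletal muscle markers summed to 14441 cRPKM in the head and to 11327 cRPKM in these eyes. The part of these tissues in the ratios was not tested.

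Most of the 8 genes rose between 48 and 60 hpf, though this was not the largest step of each. Col10a1 rose more between 72 hpf and 5 dpf (2.46 ± 0.32 on the log2 scale). In WT libraries col9a1a was 4.94-fold higher in 48 hpf eyes than in the head, and 3.69-fold higher at 60 than at 48 hpf. By edgeR (quasi-likelihood, Benjamini-Hochberg over 21829 genes), 7 of the 8 were higher at 60 hpf, where 25.9% of all genes passed in either direction and 14.4% were higher. This contrast was added after the values had been seen. In all larval stage comparisons the libraries of a stage were 1 mutant and 1 WT library, with 3 residual degrees of freedom. Their p-values rest on how the genotype difference varied between stages. They do not measure the spread between pools of the same genotype and stage. Matn1 rose by 8.96 ± 0.40 on the log2 scale (SE, adjusted p = 5.08e-05), the eighth largest fitted change of all genes tested. Acana rose by 3.57 ± 0.25 (adjusted p = 0.000131) and snorc by 2.73 ± 0.21 (adjusted p = 0.000209). Among the fibril genes, col11a2 rose by 2.28 ± 0.31 (adjusted p = 0.00311), col9a1a by 2.00 ± 0.31 (adjusted p = 0.00537) and col2a1a by 1.86 ± 0.31 (adjusted p = 0.00617). Col10a1 rose by 1.37 ± 0.31 (adjusted p = 0.0189), and its 60 hpf libraries differed more between genotypes than those of the other genes. Sox9a changed by 0.16 ± 0.19 and did not pass (adjusted p = 0.552). The median over the 8 was 2.14, beside -0.05 over all genes.

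The rise was present in both genotypes. On the cRPKM scale matn1 at 60 hpf was 481-fold above 48 hpf in mutant eyes and 498-fold above it in WT eyes, and col2a1a was 3.76-fold above it in mutant eyes and 3.47-fold in WT eyes. The sox9a values at 60 hpf were 0.98 times the 48 hpf value in mutant eyes and 1.23 times it in WT eyes. Without the 60 hpf mutant library, whose muscle markers were high, 6 of the 8 still passed, and the exceptions were sox9a and col10a1 (log2 change of 0.99, adjusted p = 0.152). Without the 48 hpf mutant library 4 passed, which were matn1, snorc, acana and col11a2, while col2a1a (1.58), col9a1a (1.73) and col10a1 (1.24) then missed with adjusted p of 0.0568, 0.0523 and 0.15. Without the 48 hpf WT library 6 passed, col10a1 missing (adjusted p = 0.0984), and without the 60 hpf WT library 5 passed, col2a1a and col9a1a missing (adjusted p of 0.0673 and 0.0583). Over the same step skeletal muscle markers were lower in median (-1.48, with 14 of 38 lower and 6 higher), as were trunk Hox genes (-2.05, 9 of 29 lower), and lens and neural retina markers were higher in median (2.01 and 1.66). Their part in the cartilage result was not tested.

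**Figure D2:**
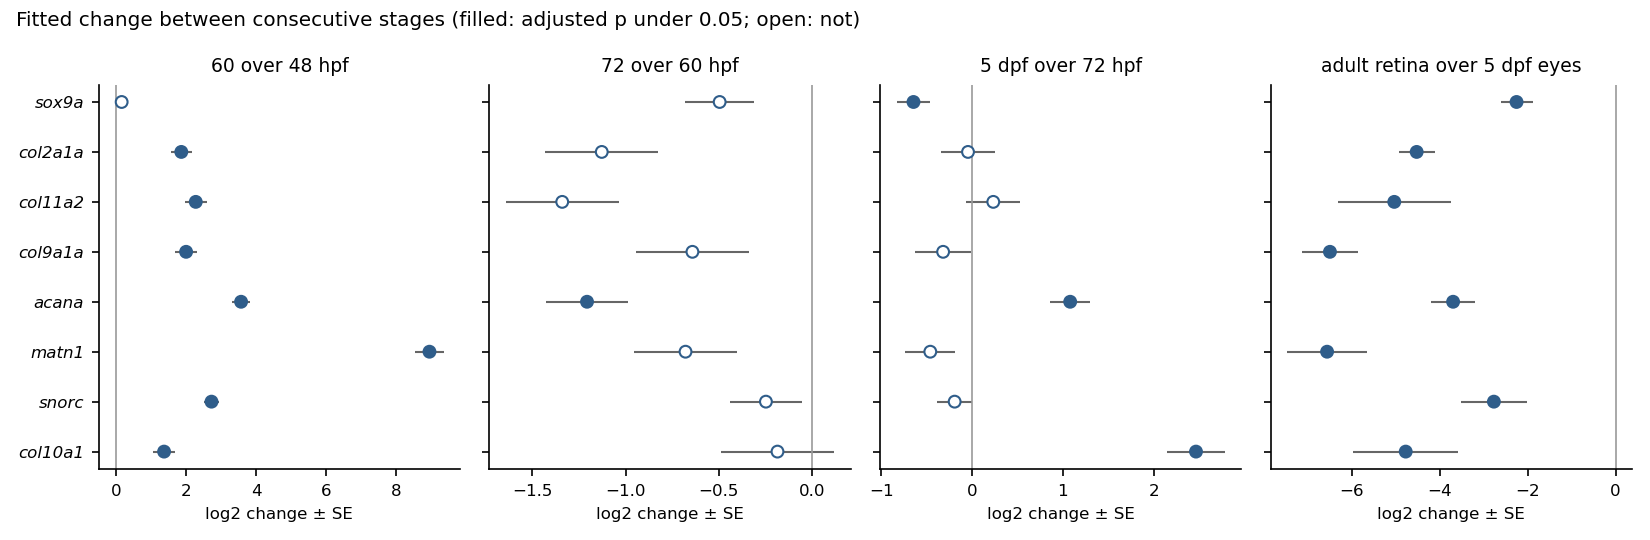
Fitted log2 change with its standard error for each of the 8 genes between consecutive stages, with mutant and WT libraries of a stage together; filled circles passed an adjusted p of 0.05 and open circles did not. Of the 8 genes, 7 are higher in the first step, matn1 by 8.96, and all 8 are lower in the adult retina than in 5 dpf eyes.

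Other genes of cartilage matrix moved less evenly over this step. Of 30 tested collagen and matrix genes outside the 8, 13 were higher at 60 hpf and 2 were lower, with a median of 0.76. Ucmaa, a matrix protein that binds calcium, was higher by 3.89 ± 0.63 (edgeR adjusted p = 0.00428) and ccn6 by 3.76 ± 0.26 (adjusted p = 0.000136). Acanb, the second aggrecan gene, was higher by 3.35 ± 0.33 (adjusted p = 0.000774), and MIA, a small cartilage secretory protein, by 2.68 ± 0.33 (adjusted p = 0.00188). Among 35 regulators of cartilage and skeleton, 5 were higher and 3 lower, with a median of 0.08 and GDF5, a signal of joint formation, the largest at 1.265 ± 0.285 (adjusted p = 0.0157). Of 34 tested genes for collagen secretion and assembly, 5 were higher and 3 lower. SERPINH1 ENSDARG00000019949, a collagen chaperone, was among the higher ones with 68.5 and 47.1 cRPKM in mutant and WT eyes at 60 hpf, against 23.7 and 22.8 cRPKM at 48 hpf (1.31 ± 0.17, adjusted p = 0.00171). Of 37 genes for glycosaminoglycan chains, 4 were higher and 6 lower, and CSGALNACT1, which starts chondroitin chains, was higher by 1.57 ± 0.19 (adjusted p = 0.00123).

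Between 60 and 72 hpf the 8 genes fitted lower, and few of these changes passed the test. Acana fell by 1.21 ± 0.22 on the log2 scale (edgeR adjusted p = 0.0374) and was the only one of the 8 to pass, where 3.43% of all genes did and 1.35% were lower. Col11a2 had -1.34 ± 0.30 (adjusted p = 0.056) and col2a1a -1.13 ± 0.30 (adjusted p = 0.0767), both lower at 72 hpf in both genotypes by cRPKM. Col10a1 had -0.19 ± 0.30, with the mutant library lower at 72 hpf than at 60 hpf and the WT library higher. A fit on the 48 to 72 hpf libraries alone called 6 of the 8 lower, where 4742 of 21150 genes passed and 2374 were lower. Leaving out either 60 hpf library or the 72 hpf WT library ended the acana call. The comparisons of 60 with 48 hpf and of 72 with 60 hpf share the 60 hpf libraries and are not independent. Over both steps, 72 hpf eyes were above 48 hpf eyes in 5 of the 8 genes, where 26.1% of all genes passed and 14.1% were higher. These were matn1 (8.28 ± 0.39), snorc (2.48 ± 0.21), acana (2.37 ± 0.24), col9a1a (1.36 ± 0.31) and col10a1 (1.19 ± 0.31). Col2a1a (0.74 ± 0.30, adjusted p = 0.113) and col11a2 (0.94 ± 0.30, adjusted p = 0.0582) did not pass, nor did sox9a (-0.34 ± 0.19, adjusted p = 0.216). Col2a1a and col11a2 did pass by DESeq2 (adjusted p of 0.0425 and 0.00788) and in the edgeR fit on the 48 to 72 hpf libraries alone (adjusted p of 0.00131 and 0.000579). Over all genes, DESeq2 called 6518 of 26891 and that edgeR fit 8838 of 21150. With any single library of these stages left out, 3 or 4 of the 8 passed, and matn1, snorc and acana were among them each time. Col9a1a missed whichever of these 4 libraries was left out (adjusted p between 0.0585 and 0.168), and col10a1 passed only without the 72 hpf mutant library (adjusted p = 0.0053).

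Between 72 hpf and 5 dpf the 8 genes passed the test about as often as all genes did, and in both directions. Col10a1 rose by 2.46 ± 0.32 on the log2 scale (edgeR adjusted p = 0.00181) and acana by 1.08 ± 0.22 (adjusted p = 0.00666), while sox9a fell by 0.64 ± 0.19 (adjusted p = 0.0272). So 2 of the 8 were higher and 1 lower, where 39.1% of all genes passed, 19.3% higher and 19.8% lower. The other 5 lay between -0.46 and 0.23 and did not pass. The 72 hpf and 5 dpf libraries differ by kit and belong to different sets of libraries, so stage cannot be told apart from these. In col2a1a, col11a2, col9a1a and snorc the mutant library was higher at 5 dpf than at 72 hpf and the WT library was lower. Col9a1a at 5 dpf was 1.18 times its 72 hpf level in mutant eyes and 0.46 times it in WT eyes, and col2a1a was 1.27 times it in mutant eyes and 0.63 times it in WT eyes. Matn1 was lower at 5 dpf in both genotypes, at 0.96 times its 72 hpf level in mutant eyes and 0.48 times in WT eyes. Without the 5 dpf mutant library, col2a1a (-0.65, adjusted p = 0.017), col9a1a (-0.98, adjusted p = 0.000776) and matn1 (-1.02, adjusted p = 0.00135) were called lower and 6 of the 8 passed in all. Without the 5 dpf WT library, 3 passed, all higher, with col11a2 among them (0.70, adjusted p = 0.0144) and sox9a no longer (-0.37, adjusted p = 0.103). Without the 72 hpf WT library col10a1 alone passed, acana missing with an adjusted p of 0.054, and without the 72 hpf mutant library sox9a missed (adjusted p = 0.0748). Col10a1 was called higher in each of these fits.

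Other gene groups also held both higher and lower genes between 72 hpf and 5 dpf. Of 30 other cartilage matrix genes, 8 were higher at 5 dpf and 3 lower, with chad, a small leucine-rich matrix protein, at 5.89 and 3.98 cRPKM in mutant and WT eyes at 5 dpf, against 0.89 and 0.53 cRPKM at 72 hpf (2.87 ± 0.24, edgeR adjusted p = 0.000329). Mgp, an inhibitor of calcification, was higher by 4.11 ± 0.65 (adjusted p = 0.00274). Of 35 regulators, 6 were higher and 13 lower. Ihha, a hedgehog signal of cartilage that is about to enlarge, was among the higher ones by 2.68 ± 0.54 (adjusted p = 0.00661) at a low level of 1.58 and 0.42 cRPKM in mutant and WT eyes at 5 dpf. Of 34 secretion and assembly genes 23 were lower and 2 higher, with P4HA1, a collagen prolyl hydroxylase, lower by 2.1 ± 0.16 (adjusted p = 0.000276). Of 37 glycosaminoglycan genes 20 were lower and 1 higher, with UGDH, which makes a sugar precursor of the chains, lower by 1.70 ± 0.14 (adjusted p = 0.000329). Of 19 bone genes tested, 8 were higher at 5 dpf and 2 lower. Spp1, which encodes osteopontin, had 23.6 and 9.57 cRPKM in mutant and WT eyes at 5 dpf, against 0.51 and 1.08 cRPKM at 72 hpf (4.29 ± 0.53, adjusted p = 0.00176). Markers of other tissues moved over the same step. Of 38 skeletal muscle genes 16 were higher and 1 lower (median 0.97), and they summed to 8750 and 3188 cRPKM in mutant and WT eyes at 5 dpf, against 2239 and 2791 cRPKM at 72 hpf. Of 20 exocrine pancreas genes 4 were higher and 2 lower, with a median of 8.66, and the list summed to 6564 and 45.2 cRPKM in mutant and WT eyes at 5 dpf, against 17.02 and 17.06 cRPKM at 72 hpf. All 25 lens genes tested were higher (median 1.53), as were 7 of 32 neural retina genes, with 3 lower (median 0.94). The part of these tissues in the change of the 8 genes was not tested.

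In the adult retina all 8 genes were far below 5 dpf eyes. In edgeR's test over 23235 genes, all 8 were lower, where 34.1% of all genes passed and 16.6% were lower. Matn1 fell by 6.56 ± 0.91 on the log2 scale (adjusted p = 0.00315), col9a1a by 6.49 ± 0.63 (adjusted p = 0.00099), col11a2 by 5.03 ± 1.28 (adjusted p = 0.0258) and col2a1a by 4.52 ± 0.41 (adjusted p = 0.000719). Col10a1 fell by 4.77 ± 1.19 (adjusted p = 0.0238), acana by 3.69 ± 0.51 (adjusted p = 0.00292), snorc by 2.77 ± 0.75 (adjusted p = 0.0313) and sox9a by 2.25 ± 0.36 (adjusted p = 0.00508). The adult libraries were made from removed retinae and the 5 dpf libraries from removed eyes, so stage and tissue cannot be told apart. Lens markers, which a clean retina lacks, summed to 22.7 and 17.2 cRPKM in the adult retinae, against 61988 cRPKM in mutant and 92554 cRPKM in WT eyes at 5 dpf. Without the 5 dpf mutant library, and likewise without the 5 dpf WT library, 1 library was left at that stage. All 8 genes still fitted lower, but col11a2, snorc and col10a1 were no longer called. Many genes outside the 8 lost their call in these fits too, so the loss was not particular to these 3. Of 31 other cartilage matrix genes 16 were lower in the adult retina and 1 higher (median -2.09), and of 35 regulators 15 were lower and none higher (median -1.40), beside a median of 0.06 over all genes. With the adult and 5 dpf libraries alone, which left 1 residual degree of freedom, none of the 8 passed (adjusted p between 0.134 and 0.399). By edgeR that fit called 0 of 23416 genes, with 3488 at an unadjusted p under 0.05.

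The adult replicates were not alike. Col11a2 had 665 counts in adult retina 1 and 46 counts in adult retina 2, a ratio of 21.0 (counting interval 15.6 to 29.0), and col10a1 had 1533 and 143 counts, a ratio of 15.6 (interval 13.1 to 18.6). Snorc was 6.37-fold and matn1 6.20-fold higher in adult retina 1, whereas col2a1a was 1.34-fold higher and sox9a was at 0.57 times the level of adult retina 2. Adult retina 1 also had more skin (11294 against 757 cRPKM), muscle (3144 against 257 cRPKM) and bone markers (758 against 194 cRPKM). Their part in these residual levels was not tested. Without adult retina 1, all 8 genes still fitted lower than in 5 dpf eyes, and without adult retina 2 likewise. Each of these fits holds 1 adult library, so it cannot measure the spread between adult retinae. The fitted col11a2 change was -8.35 without adult retina 1 and -4.125 without adult retina 2, and that of snorc -4.53 without adult retina 1 and -2.025 without adult retina 2.

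Across the 4 pairs of sibling libraries, none of the 8 genes passed edgeR's test of mutant against WT eyes with stage as a factor. The fitted log2 differences lay between 0.15 and 0.37, all above 0, with adjusted p between 0.881 and 0.895 and with acana at an unadjusted p of 0.0473. Only 0.00458% of all genes, 1 of 21829, passed that test, and 1074 had an unadjusted p under 0.05. DESeq2 called 0 of the 8 and 45 genes in all. With 1 library per genotype and stage, the spread in this test is that of the genotype difference between stages.

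The single pairs differed by age. On log2(cRPKM + 1) the median of all 8 was 0.05 at 48 hpf, 0.05 at 60 hpf and 0.20 at 72 hpf, beside 0.05, 0.07 and 0.06 over all genes with at least 5 cRPKM in a library of the pair, and it was 1.102 at 5 dpf, beside 0.22. With that minimum, which 5 of the 8 met at 48 hpf and 7 at 72 hpf, the median of the 8 was 0.07 at 48 hpf and 0.14 at 72 hpf. None of the 8 was 2-fold apart at 48, 60 or 72 hpf, where 0.676%, 1.59% and 0.563% of genes were. At 5 dpf, 4 of the 8 were at least 2-fold higher in mutant eyes, where 7.77% of 12560 genes were 2-fold apart and 5.25% higher. Col11a2 was 2.80-fold higher (counting interval 2.74 to 2.86), col2a1a 2.79-fold (2.77 to 2.82), col9a1a 2.78-fold (2.73 to 2.84) and matn1 2.42-fold (2.37 to 2.47). The other 4 were also higher in mutant eyes, acana 1.98-fold, col10a1 1.92-fold, sox9a 1.88-fold and snorc 1.58-fold. After the shift of all genes was taken off, the log2 ratios of the 8 at 5 dpf lay between 0.41 for snorc and 1.25 for col2a1a. Scaled by TMM, 3 of the 8 stayed at least 2-fold higher and matn1 had a log2 ratio of 0.91. The share of all genes at least 2-fold apart was not counted on that scale, so this count has no background beside it. At 60 hpf col10a1 stood apart from the rest, 1.79-fold higher in mutant eyes, and at 72 hpf it was at 0.705 times the WT level.

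**Figure D3:**
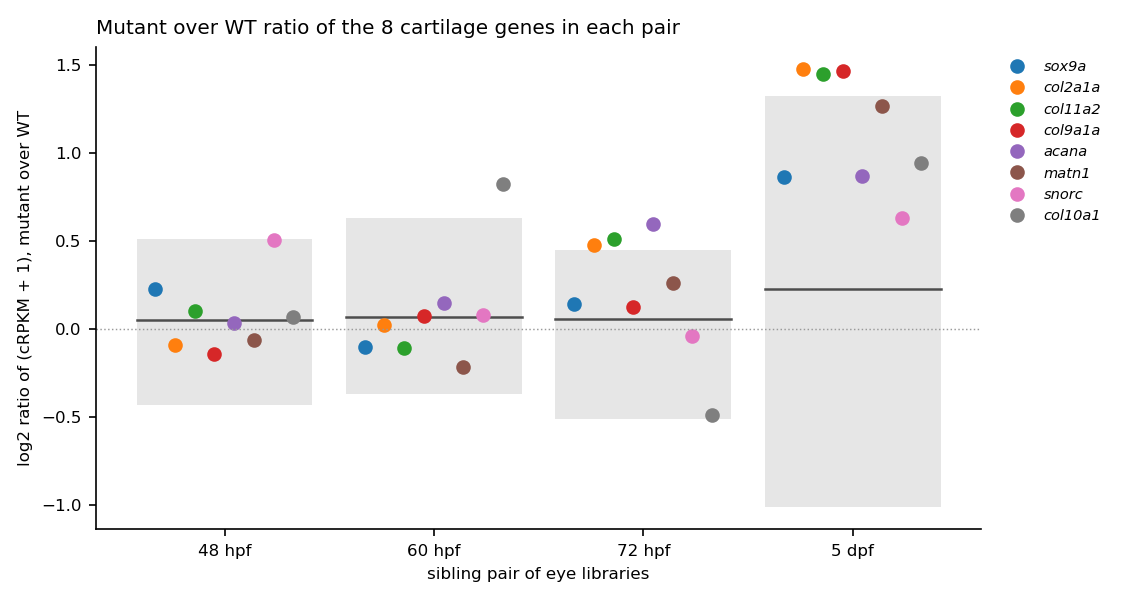
Log2 ratio of (cRPKM + 1), mutant over WT eyes, for the 8 genes in each sibling pair; the dark line is the median of all expressed genes and the grey band spans the central 95% of them. At 5 dpf the 8 genes lie between 0.63 and 1.48 with the gene median at 0.22, while the highest value at 48 to 72 hpf is that of col10a1 at 60 hpf (0.82).

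A term for genotype by age, on the log2 of hours, asked whether the mutant to WT ratio changed along the 4 stages. None of the 8 passed, where 0.353% of all genes did, 77 of 21829, with 2329 at an unadjusted p under 0.05. The nearest was col2a1a, at 1.03 ± 0.21 per doubling of age (edgeR adjusted p = 0.0601), followed by col9a1a at 1.04 ± 0.23 (adjusted p = 0.0831), matn1 at 1.03 ± 0.25 (adjusted p = 0.118) and col11a2 at 0.96 ± 0.25 (adjusted p = 0.143). These 4 had unadjusted p values between 0.000302 and 0.00226. DESeq2 called 3 of the 8, col2a1a, col9a1a and matn1, with adjusted p of 0.00577, 0.00927 and 0.0429. Over all genes it called 291 of 26891. Leaving out the 72 hpf pair brought all 4 past the threshold, with adjusted p between 0.00268 and 0.0173. That fit called 995 of 21706 genes in all, against 77 in the main fit, so more genes passed in general. Leaving out any other pair gave no call among the 8. Without the 60 hpf pair the fit called 0 of 21771 genes, and without the 5 dpf pair 0 of 21150. No gene of any kind passed there, so the missing calls were not particular to the 8. Without the 48 hpf pair, 346 of 21548 genes passed.

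The 5 dpf pair also differed in markers of many tissues other than cartilage. Besides the pancreas sum given above, skeletal muscle markers summed to 8750 cRPKM in mutant and 3188 cRPKM in WT eyes. In the same order, bone markers summed to 1603 and 937 cRPKM, skin markers to 8945 and 5785 cRPKM, and trunk Hox genes to 15.1 and 1.79 cRPKM. The trunk Hox sums were near the floor, with the median gene at 0.08 cRPKM in mutant and 0 cRPKM in WT eyes. The ear gene otomp, an otolith matrix protein, had 24.6 cRPKM in mutant and 0.68 cRPKM in WT eyes, and stm, a second otolith matrix gene, 45.0 and 9.24 cRPKM. In the 6 eye libraries of 48 to 72 hpf, otomp ranged between 10.0 and 25.4 cRPKM and stm between 55.3 and 115 cRPKM, so that for otomp the WT library at 5 dpf, and for stm both libraries, lay below that range. These 2 genes were picked with their values in view. Of the 10 inner ear genes expressed in this pair, 7 were higher in mutant eyes, 5 at least 2-fold, and 1 was at least 2-fold lower, and the list summed to 682 cRPKM in mutant and 381 cRPKM in WT eyes. Notochord genes summed to 255 cRPKM in mutant and 113 cRPKM in WT eyes, of which 183 and 66.6 cRPKM were COL9A2, a cartilage collagen as well. All 6 notochord genes expressed in the pair were higher in mutant eyes, with a median log2 ratio of 0.46, and the notochord transcription factor tbxta was at 0.26 and 0.04 cRPKM. Neural retina markers summed to 5708 cRPKM in mutant eyes and to 30972 cRPKM in WT eyes, and lens markers to 61988 and 92554 cRPKM. The typical neural retina gene differed far less than that sum. Of 31 expressed in the pair, 12 were at least 2-fold lower in mutant eyes and 5 were higher, with a median log2 ratio of -0.46. The median lens gene had -0.47. Of 23 other cartilage matrix genes expressed in this pair, all were higher in mutant eyes and 14 at least 2-fold, with a median over that list of 1.02. At 60 hpf, muscle markers (median log2 ratio 1.54) and trunk Hox genes (1.98) were also higher in mutant eyes, and the 8 genes had a median of 0.05. The part of these tissues in the ratios of the 8 genes was not tested at 60 hpf or at 5 dpf.

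**Figure D4:**
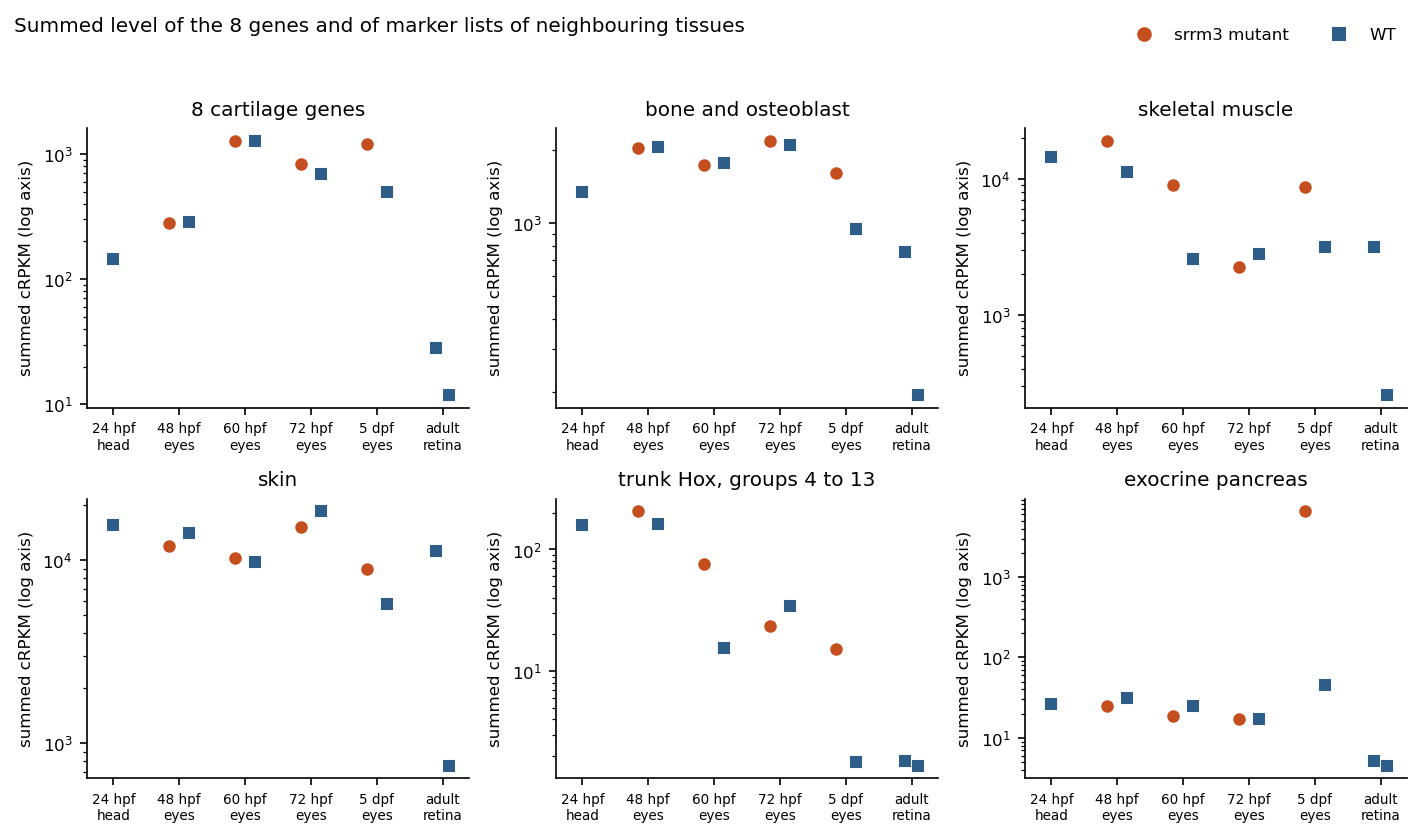
Summed cRPKM (log axis) of the 8 genes and of 5 marker lists in each library; orange circles are srrm3 mutant eyes and blue squares are WT. In 5 dpf mutant eyes the exocrine pancreas sum is 6564 cRPKM, against 45.2 in WT eyes, and muscle markers are also higher in mutant eyes at 60 hpf.

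Zebrafish hold second copies of several of these genes, and reads of near-identical copies could be split between them by the counting, so that the balance within a pair is uncertain. The table of names gave the human symbols COL2A1, SOX9 and COL10A1 to 2 identifiers each. For COL2A1 and SOX9, the a and b copies are told apart here by Ensembl's naming of the identifiers ENSDARG00000069093 (col2a1a), ENSDARG00000011407 (col2a1b), ENSDARG00000003293 (sox9a) and ENSDARG00000043923 (sox9b). That naming was taken as known and was not checked against a reference here. Between 48 and 60 hpf the copies of col9a1 moved in opposite directions. Col9a1a rose, as given above, while col9a1b fell by 0.75 ± 0.15 (edgeR adjusted p = 0.00879). Col9a1b had 68.3 cRPKM in the head, then 54.5 and 37.3 cRPKM in mutant and WT eyes at 48 hpf and 34.7 and 20.04 cRPKM at 60 hpf. Of the summed level of both col9a1 copies, col9a1a held 13.6% in the head, 46.8% and 58.7% in mutant and WT eyes at 48 hpf, and between 85.6% and 93.2% in all later larval eyes. It held 17.8% and 10.97% in the adult retinae, where col9a1b was at 5.64 and 3.41 cRPKM.

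Sox9b fell by 0.69 ± 0.14 between 48 and 60 hpf (edgeR adjusted p = 0.0108), the step at which sox9a did not pass. It had 39.8 and 35.6 cRPKM in mutant and WT eyes at 48 hpf and 22.9 and 23.3 cRPKM at 60 hpf. The 2 copies were near level at 48 hpf, with sox9a at 47.8% and 46.5% of their sum in mutant and WT eyes, and sox9a held 60.8% and 62.1% at 60 hpf. Col2a1b rose by 0.84 ± 0.24 (adjusted p = 0.0372) and acanb by 3.35 ± 0.33 over that step, the same direction as col2a1a and acana. Col2a1b had 117 and 137 cRPKM in mutant and WT eyes at 48 hpf and 222 and 228 cRPKM at 60 hpf. The other gene named COL10A1, ENSDARG00000101535, was at or below 1.46 cRPKM in every larval library and at 14.1 and 0.78 cRPKM in the adult retinae. It did not pass the test in any of these comparisons.

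**Figure D5:**
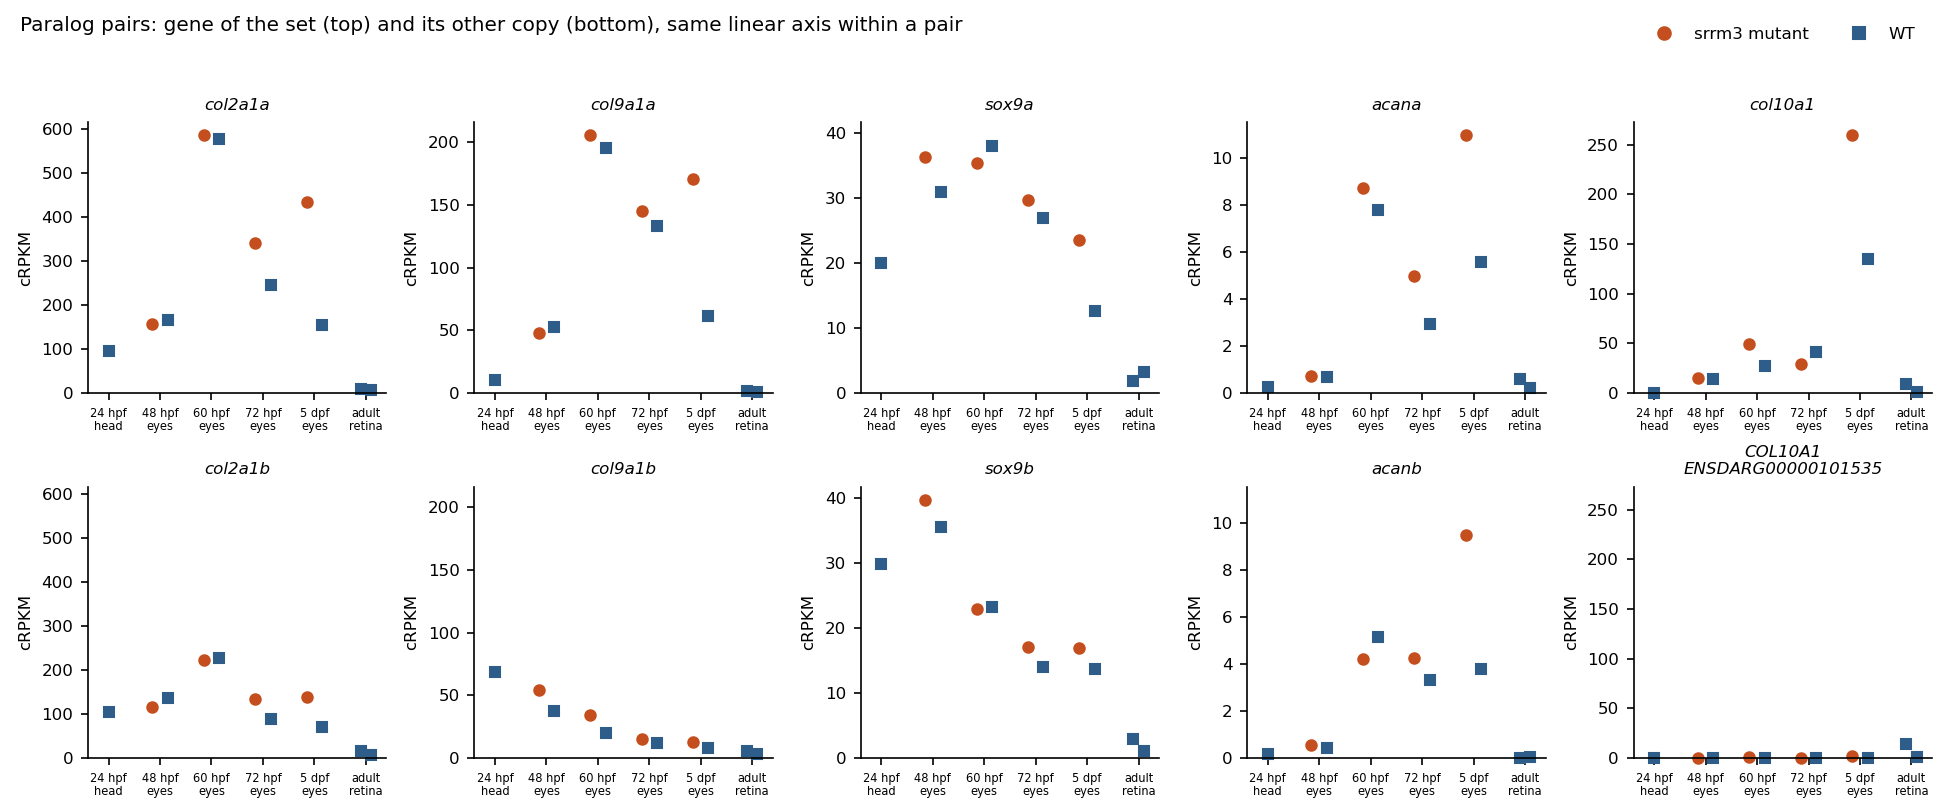
Level (cRPKM, linear axis shared within a pair) of 5 of the 8 genes (top) and of their other copies (bottom) in each library; orange circles are srrm3 mutant eyes and blue squares are WT. Col9a1b is highest in the 24 hpf head at 68.3 cRPKM, where col9a1a has 10.7 cRPKM, and the balance is reversed in 60 hpf eyes.

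The genes whose profile over the 11 libraries was most like that of the members were sought among 15123 genes with at least 5 cRPKM in a library, by Pearson correlation of log2(cRPKM + 1). For col2a1a these were PRDM1 (0.997), COL9A2 (0.997) and col9a3 (0.993), and COL9A2 and col9a3 encode the other chains of type IX collagen. COL9A2 had 218 and 204 cRPKM in mutant and WT eyes at 60 hpf, 183 and 66.6 cRPKM at 5 dpf, and 6.91 and 4.66 cRPKM in the adult retinae. PRDM1, a transcription factor, followed the same course at 22.4 and 19.8 cRPKM in mutant and WT eyes at 60 hpf. For sox9a the nearest were KDM2B ENSDARG00000036593 (0.996), DTNA (0.996) and znf423 ENSDARG00000059707 (0.994), none of them on the lists of cartilage genes. For the mean standardised profile of the 8, the nearest was HAPLN1 ENSDARG00000068516 (0.989), a link protein that ties aggrecan to hyaluronan, with 14.7 and 12.9 cRPKM in mutant and WT eyes at 60 hpf, against 2.85 and 3.10 cRPKM at 48 hpf. Si:dkey-6n6.1, chadlb, PALM ENSDARG00000007818, C7H19orf12 ENSDARG00000058857, OTOF ENSDARG00000020581, OXNAD1 and BFSP2 followed, down to 0.968. BFSP2 is a filament protein of the lens, and its level differed between genotypes at 5 dpf in the other direction, with 586 cRPKM in mutant and 768 cRPKM in WT eyes.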

How the data were processed

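The authors deposited, per library, a table of read counts and cRPKM values for 31848 gene identifiers, of which 2461 had no value. The submitters' processing notes name the build danRer10. Not given in the sources used here is how reads were aligned and counted, whether strand was used, and what the c in the deposited cRPKM (an RPKM unit) stands for. The 5 dpf and adult libraries are stranded per the labels. Counts were tested with edgeR 4.0.16 in R 4.3.3 (TMM scaling, filterByExpr, robust quasi-likelihood F test), with Benjamini-Hochberg adjustment over all genes tested and a threshold of 0.05. The 8 larval eye libraries entered with stage as a factor and genotype, the 11 libraries together for the adult comparison, so groups of 1 or 2 libraries share 1 estimate of the spread. Where 1 library stands per group, log2(cRPKM + 1) ratios are given without a test. The scripts were tested on simulated counts. DESeq2 1.42.0, limma 3.58.1, other filters, pseudocounts and scalings, and leaving out libraries were tried. All 8 genes and, from each context list, at most 4 genes past the threshold by size (otherwise the 2 with the lowest p) are named; otomp, stm and tbxta were picked with their values in view, as were the comparisons of 60 hpf. The members and the lists were chosen with earlier results of these data known. No genome sequence was used here.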

Additional observations from a re-analysis of the deposited data

Results flagged for a closer look

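Among the genes of the regulator list, MEF2C ENSDARG00000029764 was the only one whose mutant to WT ratio changed with age by edgeR's test, at -1.221 ± 0.22 on the log2 scale per doubling of age (adjusted p = 0.0392). It had 5.49, 4.78, 4.72 and 8.80 cRPKM in mutant eyes at 48, 60 and 72 hpf and 5 dpf, against 3.2, 3.78, 4.10 and 13.2 cRPKM in WT eyes. The mutant library was thus higher at the first 3 stages and lower at 5 dpf. By limma this test called 0 genes in all, as it did by edgeR without the 60 hpf or the 5 dpf pair, so MEF2C did not pass there. The 5 dpf pair also differed in neural retina markers, which summed to 5708 cRPKM in mutant and 30972 cRPKM in WT eyes. The median log2 ratio over 31 of these markers was -0.46. Their part in the MEF2C ratio was not tested. MEF2C is a transcription factor of muscle, neurons and hypertrophic chondrocytes.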

How the results depend on the processing

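Each count of the 8 genes was recomputed with other scalings, filters and tools and with each library or pair left out; the fits on some stages alone, and those of 60 hpf, were chosen after seeing the data. The cause of a change was not tested. For 60 over 48 hpf the count was 7, then 6 by limma with no filter and 4 to 6 with a library left out. For 72 over 60 hpf it was 1, then 3 by DESeq2, 0 in all 3 limma settings, 6 with the 48 to 72 hpf libraries alone, and 0 to 1 with a library left out. For 72 over 48 hpf it was 5, then 6 with RLE size factors, 7 by DESeq2, 7 with the 48 to 72 hpf libraries alone, 4 by limma with a pseudocount of 1, 3 by limma with no filter and 3 to 4 with a library left out. For 5 dpf over 72 hpf it was 3, then 2 by limma at either pseudocount, 1 by limma with no filter and 1 to 6 with a library left out. For adult retina over 5 dpf eyes it was 8, then 0 with those libraries alone, where fewer samples enter, and 5 to 8 with a library left out. The genotype count was 0 throughout, and for genotype by age it was 0, then 1 with no count filter, 3 by DESeq2 and 0 to 4 with a pair left out.

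Some fitted log2 values crossed 0 when a library or pair was left out. Genotype gave -0.05865 to 0.383 for col9a1a and -0.08925 to 0.3721 for matn1. Genotype by age gave -0.1929 to 0.7478 for sox9a, -0.8785 to 0.5001 for col10a1 and -1.168 to 0.3921 for snorc, and snorc had 0.1901 by limma (with and without a filter) and 0.1427 with the smaller pseudocount. For 5 dpf over 72 hpf the ranges were -0.6457 to 0.439 for col2a1a, -0.3479 to 0.7034 for col11a2, -0.9781 to 0.2199 for col9a1a, -1.021 to 0.005811 for matn1 and -0.3815 to 0.01457 for snorc. For sox9a at 60 over 48 hpf it was -0.09142 to 0.3899, and for col10a1 at 72 over 60 hpf -0.7256 to 0.2911.

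Over all genes, genotype called 1, against 45 by DESeq2, 3 with no filter, 0 by limma or a non-robust fit and 0 to 4 with a pair left out. Genotype by age called 77, against 169 with no filter, 291 by DESeq2, 0 by limma and 0 to 995 with a pair left out. The 60 over 48 hpf comparison called 5653 (3232 by limma with no filter, 8730 with 48 to 72 hpf alone, 1388 to 1685 with a library left out). The 72 over 60 hpf comparison called 748 (3 by limma with no filter, 4742 with 48 to 72 hpf alone, 0 to 1191 with a library left out), and 72 over 48 hpf 5697 (3461, 8838, and 1416 to 3423). The 5 dpf over 72 hpf comparison called 8538 (4386 to 10180 with a library left out). The adult comparison called 4073 higher and 3853 lower by edgeR, and 2510 higher and 5300 lower by limma. For 72 over 60 hpf, DESeq2 called 2846 of 26891 genes. Limma called 24 of 19558 there with a pseudocount of 1 and 34 with 0.1, so it called almost no gene of any kind. For 5 dpf over 72 hpf, limma called 7422 of 19558 with a pseudocount of 1, 7280 with 0.1 and 6920 of 26888 with no filter. For 72 over 48 hpf, limma with a pseudocount of 1 called 4446 of 19558 and DESeq2 6518 of 26891. The genotype tests had stage as a factor, which pairs the sibling libraries, and the replicate numbers gave no further pairing. Depth limits col10a1 (4 counts) and acana (24 counts) in the head, acana and matn1 at 48 hpf (51 to 65 counts), and acana, snorc, col11a2 and matn1 in adult retina 2 (39 to 57 counts).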
